A study of Rattus norvegicus with 6 samples.

Results

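The 4 mature strands of the neighbouring hairpins miR-132 and miR-212 are listed as rno-miR-132-3p, rno-miR-132-5p, rno-miR-212-3p and rno-miR-212-5p. They were taken by name from a table of 842 miRNA rows, 676 of them with miRBase names, and all 4 passed the filter on low counts that left 534 rows to test. The table was made from small RNA libraries of the orbitofrontal cortex, a frontal region used in valuing outcomes, of 6 adult male Sprague Dawley rats, an outbred stock. Every animal was operated on 3 times (days 1, 4 and 7) and its tissue was dissected on day 42. The injured group (n = 3) received controlled cortical impact, in which a driven tip strikes the brain, with a velocity of 5 m/s and a depth of 2 mm. The sham group (n = 3) was operated on with no impact. The labels do not give the side or site of the impact relative to the dissected tissue. The comparison asked whether these strands differed between the groups weeks after repeated mild brain injury.

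Both hairpins are processed from 1 primary transcript that is known, from work in rat neurons, as a target of the transcription factor CREB. Synaptic activity and the neurotrophin BDNF raise the transcript, and miR-132 promotes the growth of dendrites and spines. Each hairpin is cut to a duplex of a 5p and a 3p strand, and the strand that is loaded into an Argonaute protein is the stable one. The 3p strands are those usually studied as the active miRNAs of both hairpins.

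The mature sequences, from the RefSeq annotation of rat build GRCr8, are shown because the 4 strands fall into a pair with a common seed and a pair without one. Both genes lie on the plus strand of chromosome 10, with no other annotated gene between them. Hic1 precedes Mir212, and the long non-coding RNA gene LOC120095261 follows Mir132. Capitals mark the seed, bases 2 to 8 counted from the 5′ end, which pairs with target RNAs.
miR-132-3p: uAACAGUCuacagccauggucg
miR-212-3p: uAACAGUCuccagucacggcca
miR-132-5p: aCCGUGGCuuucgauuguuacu
miR-212-5p: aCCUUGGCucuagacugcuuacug

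The 3p strands carried the same seed, AACAGUC, and no other of the 693 named mature rat miRNAs in that annotation had it. They were identical over their first 9 bases and at 17 of 22 positions. The differences from miR-132-3p to miR-212-3p were A10C, C14U, U17C, U20C and G22A, all outside the seed. The 5p strands were identical at 14 of 22 compared positions and differed inside the seed, by G4U, so neither shared its seed with any other named miRNA. miR-212-5p had 24 bases and the other strands had 22. Both 3p strands began with U and both 5p strands with A. GC content was 50.0% in miR-132-3p, 54.5% in miR-212-3p, 45.5% in miR-132-5p and 50.0% in miR-212-5p.

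The hairpin of miR-132 shows how the strands face each other, with the 5p strand (bases 23 to 44) and the 3p strand (bases 59 to 80) of its 101 bases in capitals.
rno-mir-132: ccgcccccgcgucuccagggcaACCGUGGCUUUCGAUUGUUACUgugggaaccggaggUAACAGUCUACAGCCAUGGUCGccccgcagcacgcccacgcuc

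The 300 bases around the annotated start of LOC120095261 also cover the stretch just before this hairpin and the hairpin itself. They are shown because the strands are known as CREB targets. The window is chr10:60521892-60522191 on the plus strand of GRCr8, and the capitals mark TGACGTCA, the palindromic cAMP response element that CREB binds.
LOC120095261 window: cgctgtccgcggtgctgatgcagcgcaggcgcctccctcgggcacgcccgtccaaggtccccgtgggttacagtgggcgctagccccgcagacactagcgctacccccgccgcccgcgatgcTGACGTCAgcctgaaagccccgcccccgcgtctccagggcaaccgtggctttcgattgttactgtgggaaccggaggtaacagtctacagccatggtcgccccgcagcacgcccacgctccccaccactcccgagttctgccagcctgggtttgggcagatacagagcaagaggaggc
The element stood at bases 123 to 130 of the window, with 11 bases between it and the miR-132 hairpin, and it reads the same on both strands. Because Mir212 precedes Mir132 here, the element lay between the hairpins, downstream of miR-212. The sequence before miR-212 was not examined. The window had a GC content of 67.7%. Of 33469 promoter windows of the same length, not matched for GC content, 1.83% held the element. Its half-sites TGACG and CGTCA, searched on both strands, had 2 matches in the window, both inside the palindrome, and 21.2% of all windows held either. The match describes the sequence and is not a measurement of binding.

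Depth was 12538288 to 23680840 counted reads per library. Levels are given in CPM, the count per 1000000 reads scaled with edgeR's TMM factors. The cell type markers of cortex were present in every library: all 5 neuronal markers, led by miR-9a-5p and miR-128-3p, all 4 astrocyte and all 3 oligodendrocyte markers were detected in each. Neuronal markers summed to 279745 to 314249 CPM on library totals in sham and 298437 to 305540 in the injured group. Epithelial miR-200 markers varied most, from 44.3 to 3597 CPM in sham and from 7.40 to 1579 CPM in the injured group, and sham replicate 1 and injured replicate 2 stood apart in them. The 3 erythrocyte markers summed to 52.8 to 85.6 CPM in sham and 22.6 to 39.7 CPM in the injured group, without overlap. The 5 microglial and immune markers summed to 76.6 to 90.6 CPM in sham and 50.5 to 76.5 CPM in the injured group, also without overlap, by a narrow margin. Of the single members of these sums, miR-451-5p, miR-142-5p and miR-155-5p did not overlap between the groups and the others did. Such a separation was found for 7.87% of all tested miRNAs, and none of the markers passed the edgeR test between the groups. The part of either sum in the results below was not tested. In such bulk tissue, fewer cells of a type and less RNA per cell cannot be told apart.

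The 4 strands together took 0.642% to 0.842% of all reads in a library. miR-132-5p was the highest strand in 5 of 6 libraries, at rank 37 to 45 among all 842 rows, and miR-132-3p followed at rank 41 to 49, except in sham replicate 3, where miR-132-3p was the higher. miR-212-5p held rank 60 to 93 and miR-212-3p rank 132 to 177. The ranges of the miR-132 strands overlapped, at 2305 to 3453 CPM for 3p and 2946 to 4368 CPM for 5p. The highest library of miR-212-5p, at 1467 CPM, lay below the lowest of miR-132-3p, and the highest of miR-212-3p, at 300.3 CPM, lay below the lowest of miR-212-5p, at 523.3 CPM. These orders compare counts of reads on strands of 22 to 24 bases with no length term. Ligation is known to favour some sequences, and its part in the order of strands was not tested.

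**Figure D1:**
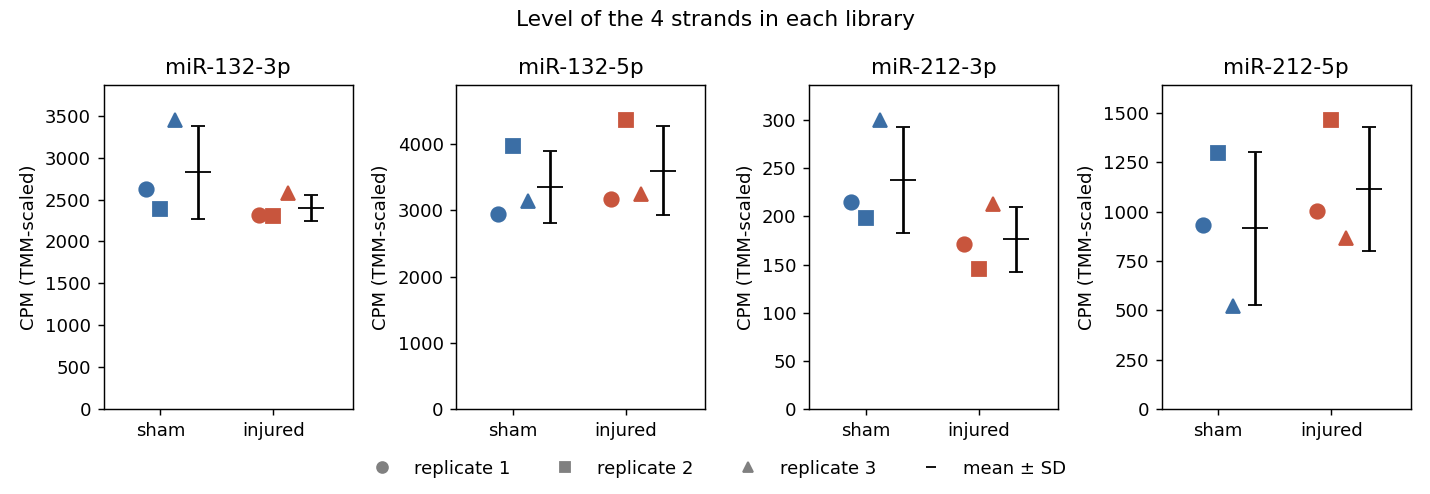
Level of each strand in CPM (TMM-scaled, linear axis from 0) in 3 sham and 3 injured libraries, with each point 1 animal and the bar the mean ± SD. Sham replicate 3 is the highest point for both 3p strands and the lowest for miR-212-5p, and the groups overlap in every panel.

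Neither strand of miR-132 passed the test between injured and sham rats. miR-132-3p, the strand most often followed as an activity-dependent miRNA, had 2623, 2393 and 3453 CPM in sham replicates 1, 2 and 3. It had 2313, 2305 and 2576 CPM in injured replicates 1, 2 and 3. The highest value was sham replicate 3, the injured values lay close together, and the groups overlapped through injured replicate 3. The mean was 2823 ± 558 CPM in sham and 2398 ± 154 CPM in the injured group (SD; 3 animals each). The log2 fold change of injured over sham was -0.24, with a 95% interval from -0.63 to 0.16 (adjusted p = 0.878, edgeR). Without sham replicate 3 it was -0.06.

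miR-132-5p, the opposite strand of the same duplex, had 2946, 3970 and 3140 CPM in sham and 3178, 4368 and 3246 CPM in injured replicates 1, 2 and 3. Replicate 2 was the highest in each group, and these numbers only name animals and pair none. The mean was 3352 ± 544 CPM in sham and 3597 ± 669 CPM in the injured group (SD; 3 animals each). The log2 fold change was 0.10, its interval ran from -0.33 to 0.53 (adjusted p = 0.911, edgeR), and it was -0.041 without injured replicate 2.

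Neither strand of miR-212 passed it. miR-212-3p, which shares its seed with miR-132-3p, had 214.8, 197.8 and 300.3 CPM in sham and 170.9, 145.1 and 212.4 CPM in injured replicates 1, 2 and 3. As for miR-132-3p, sham replicate 3 was the highest and injured replicate 2 the lowest of the 6 libraries. The groups overlapped because injured replicate 3 lay above sham replicate 2. The mean was 238 ± 55 CPM in sham and 176 ± 34 CPM in the injured group (SD; 3 animals each). The log2 fold change was -0.43, with an interval from -0.97 to 0.11. Its unadjusted p ranked 42 among the 534 (adjusted p = 0.878, edgeR), and the value was -0.23 without sham replicate 3.

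miR-212-5p, the more abundant strand of its duplex in these libraries, had 930.9, 1299 and 523.3 CPM in sham and 1006, 1467 and 867.4 CPM in injured replicates 1, 2 and 3. Sham replicate 3 was the lowest and injured replicate 2 the highest, the reverse of the 3p strands. The mean was 918 ± 388 CPM in sham and 1114 ± 314 CPM in the injured group (SD; 3 animals each). The log2 fold change was 0.28, its interval ran from -0.53 to 1.09 (adjusted p = 0.900, edgeR), and it was -0.0017 without sham replicate 3.

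Over the whole table edgeR called 0 of 534 miRNAs, a background of 0%, so the 0 of 4 called here does not set these strands apart. At an unadjusted p under 0.05 there were 12, or 2.25%, and none was a strand of miR-132 or miR-212. With limma-voom, with limma on log2(TPM + 1) and with DESeq2 the number called was also 0. The smallest adjusted p was 0.813 with edgeR and 0.052 with DESeq2, just above the threshold. DESeq2 gave 19 miRNAs with an unadjusted p under 0.05. The groups did not overlap for 7.87% of tested miRNAs and for 0 of the 4 strands. Both 3p strands had negative and both 5p strands positive log2 fold changes. The 5p values changed sign when single libraries were left out, as given above. With upper-quartile scaling, which raised the median of all miRNAs by 0.15, the values relative to that median were -0.20 and -0.39 for the 3p strands of miR-132 and miR-212. With TMM they were -0.21 and -0.40.

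**Figure D2:**
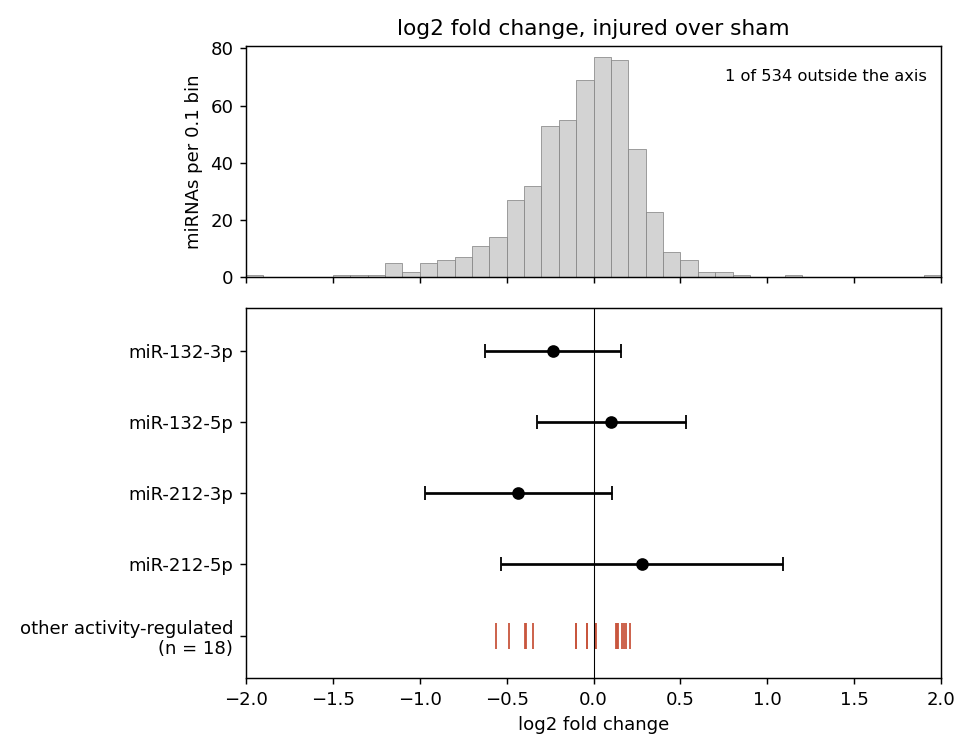
Log2 fold changes of injured over sham from edgeR. The upper panel counts all 534 tested miRNAs in bins of 0.1, with 1 outside the axis, and the lower panel shows the 4 strands with 95% intervals and 18 other activity-regulated miRNAs as ticks. The interval of every strand includes 0.

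Counting error was small beside the spread between animals. The fewest reads of any strand were 2304, for miR-212-3p in injured replicate 2, where counting alone gives a coefficient of variation of 2.08%. The coefficients between animals were 23.1% in sham and 19.3% in the injured group for that strand. They were 19.8% and 6.43% for miR-132-3p, 16.2% and 18.6% for miR-132-5p, and 42.3% and 28.2% for miR-212-5p. miR-212-5p thus had the widest spread of the 4, from lowest to highest library 2.80-fold, against 1.48-fold for miR-132-5p. Among the 351 tested miRNAs with a mean of at least 10 CPM, the SD of its log2 CPM over the 6 libraries, 0.52, ranked 28 from the top. The median over these miRNAs was 0.25, and miR-132-3p and miR-132-5p lay below it at 0.22 each.

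The hairpins differed in how far the 5p strand prevailed. For miR-212, the 5p strand outnumbered the 3p strand in every library, with 3p counts of 0.0989 to 0.574 times the 5p counts. For miR-132 the strands were nearer to equal, at 0.528 to 1.10, and only in sham replicate 3 did the 3p strand exceed the 5p strand. Of the reads of all 4 strands, miR-132-5p took 42.3% to 52.7%, miR-132-3p 27.8% to 46.6%, miR-212-5p 7.06% to 17.7% and miR-212-3p 1.75% to 4.05%.

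**Figure D3:**
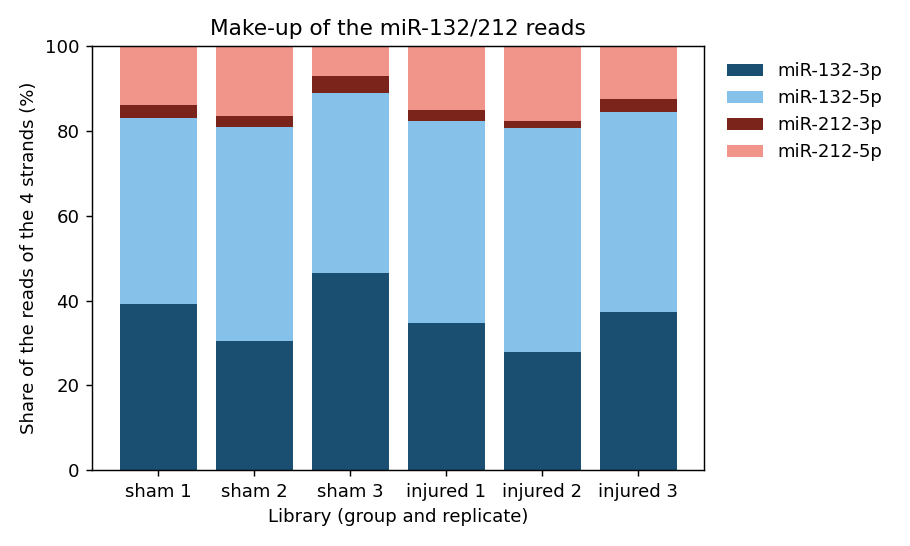
Share of each strand in the reads of all 4 strands, in percent, for each of the 6 libraries (group and replicate). The share of miR-132-3p is highest in sham replicate 3, at 46.6%, and lowest in injured replicate 2, at 27.8%.

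The ratio of 3p to 5p counts within a hairpin does not depend on library depth or scaling. On the log2 scale it was -0.17, -0.73 and 0.14 for miR-132 in sham replicates 1, 2 and 3, and -0.46, -0.92 and -0.33 in the injured replicates. For miR-212 it was -2.12, -2.71 and -0.80 in sham and -2.56, -3.34 and -2.03 in the injured group. In both hairpins sham replicate 3 had the highest ratio and injured replicate 2 the lowest, and the groups overlapped.

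The difference of injured minus sham in this log2 ratio was -0.32 ± 0.30 (SE) for miR-132, with a 95% interval from -0.99 to 0.36. For miR-212 it was -0.76 ± 0.50, with an interval from -1.89 to 0.36. Neither passed the test (adjusted p = 0.845 for both, limma across 153 hairpins), and limma called 0 of the 153 hairpins, 0%, with 5 at an unadjusted p under 0.05, or 3.27%. Without sham replicate 3 the differences were -0.12 and -0.23.

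The ratio varied more for miR-212 than for most hairpins. The SD of its log2 ratio over the 6 libraries, 0.86, ranked 5 from the top of 153, and that of miR-132, 0.38, ranked 68. The median ratio over all hairpins moved between -0.53 and -0.27. It too was lowest in injured replicate 2 and highest in sham replicate 3.

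The ratios of the hairpins followed each other across animals, with Pearson r = 0.955 (exact permutation p = 0.00278, n = 6) and Spearman rho = 0.943 (exact permutation p = 0.0167). This relation was chosen after its values were seen. Without sham replicate 3 and injured replicate 2, the libraries farthest from the median of miR-132, r was 0.876 (exact permutation p = 0.125, n = 4). Of the other 152 hairpins, 4 including miR-212, or 2.63%, had a correlation with miR-132 at least as high.

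**Figure D4:**
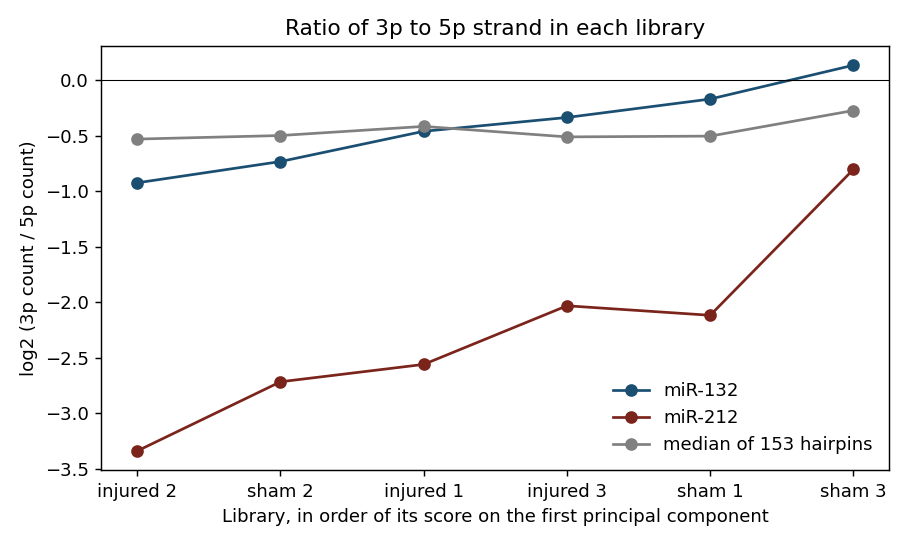
Log2 ratio of 3p to 5p counts in each library for miR-132, miR-212 and the median of 153 hairpins, with libraries ordered by their score on the first principal component of all tested miRNAs. The miR-132 line rises from -0.92 in injured replicate 2 to 0.14 in sham replicate 3. The median of all hairpins stays between -0.53 and -0.27, with its lowest and highest values in the same libraries.

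The level of miR-132-3p across the 6 animals followed that of miR-212-3p, its seed partner from the other hairpin, and ran opposite to miR-212-5p. Over log2 CPM, the 3p strands had Pearson r = 0.931 (exact permutation p = 0.00139, adjusted 0.00833 over the 6 pairs of strands, n = 6). Spearman rho was 1.00 (exact permutation p = 0.00278, adjusted 0.0167), so with TMM scaling the strands ranked the 6 libraries identically. Both p-values are the smallest that 6 libraries allow. On library totals without TMM the orders were not identical. There miR-132-3p had 2209 CPM in sham replicate 2 and 2228 CPM in injured replicate 1, while miR-212-3p had 182.6 and 164.6 CPM. Without the outermost libraries, sham replicate 3 and injured replicate 2, r was 0.930 (exact permutation p = 0.0417, n = 4). On deviations from the group means, an alternative added after seeing the data, r was 0.905, and within a single group 3 animals are too few to test it.

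miR-132-3p and miR-212-5p had r = -0.921 (exact permutation p = 0.0139, adjusted 0.0417, n = 6) and rho = -0.886 (exact permutation p = 0.0333, adjusted 0.0667). The 2 strands of miR-212 had r = -0.907 (exact permutation p = 0.0222, adjusted 0.0444, n = 6) and the same rho. Without sham replicate 3 and injured replicate 2 these values of r were -0.605 and -0.306, so both relations rest on those libraries. miR-132-5p was not tied to its own 3p strand by the test, at r = -0.494 (exact permutation p = 0.326, n = 6). With miR-212-3p it had r = -0.618 and with miR-212-5p r = 0.740, neither of which passed (adjusted exact permutation p = 0.255 and 0.135).

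**Figure D5:**
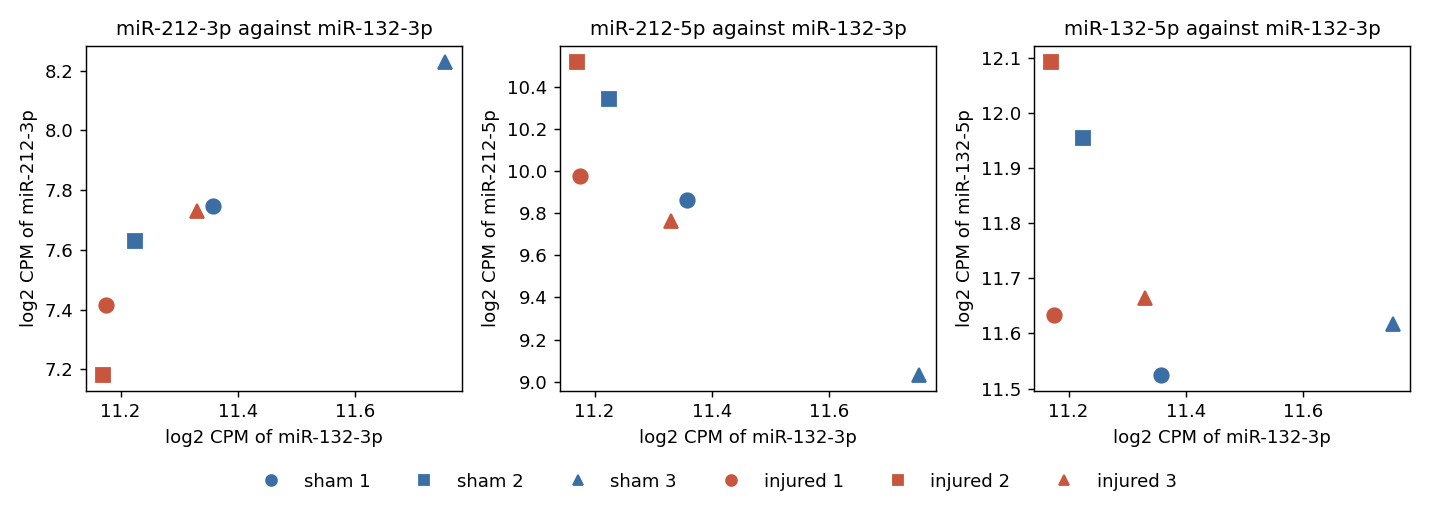
Log2 CPM of miR-212-3p, miR-212-5p and miR-132-5p against that of miR-132-3p, with each point 1 library. miR-212-3p rises with miR-132-3p over all 6 libraries (r = 0.931), while sham replicate 3 alone holds the far end of the falling relation with miR-212-5p.

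These relations were not particular to the 4 strands. Among the 533 other tested miRNAs, 14 including miR-212-3p, or 2.63%, had a correlation with miR-132-3p at least as high as that of miR-212-3p. The first principal component of all 534 tested miRNAs, each scaled to equal variance, held 39.9% of the variance. It ran from injured replicate 2, at -0.88, and sham replicate 2, at -0.44, to sham replicate 3, at 0.98. Sham replicate 1 lay at 0.22 and injured replicates 1 and 3 at -0.03 and 0.15, so the groups overlapped on it. miR-212-5p had a correlation of -0.984 with it, miR-212-3p 0.922, miR-132-3p 0.883 and miR-132-5p -0.823. In all, 80 of the 534 miRNAs had a correlation of 0.9 or more in size. The sum of the 3 oligodendrocyte markers, most of it miR-219a-2-3p by the group means, was lowest in replicate 2 of each group. It was 1044 and 1005 CPM in sham and injured replicate 2 and 1411 to 1962 CPM in the other 4. Sham replicate 3, at the other end of the component, was not the highest, at 1625 CPM. The sum of the 4 vessel markers, most of it miR-143-3p by the group means, was highest in replicate 2 of each group. It was 43345 CPM in injured and 33901 CPM in sham replicate 2, against 27845 to 32774 CPM in the other 4. The sum of the 5 neuronal markers was lowest in sham replicate 3, at 279745 CPM, but its members did not move together. In TMM-scaled CPM, miR-128-3p was lowest in that library, at 56901, while miR-124-3p and miR-138-5p were highest there, at 6024 and 920. The correlation with miR-132-3p was -0.93 for miR-128-3p and 0.84 for miR-124-3p. The microglial and immune markers were lowest in injured replicate 2, at 50.5 CPM. The part of any of these in the relations between strands was not tested.

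The ratio of one hairpin to the other did not differ detectably between the groups. miR-132-3p exceeded miR-212-3p 11.5-fold to 15.9-fold over the libraries. The log2 ratio was 3.58 ± 0.05 in sham and 3.78 ± 0.20 in the injured group (SD; 3 animals each). The difference of 0.21 had an exact two-sided permutation p of 0.2, adjusted 0.4 over the 2 ratios, where 3 against 3 cannot go below 0.1. miR-132-5p exceeded miR-212-5p 2.98-fold to 3.74-fold in 5 libraries and by a larger ratio, 2.59 on the log2 scale, in sham replicate 3. The log2 ratio was 1.95 ± 0.55 in sham and 1.71 ± 0.17 in the injured group, a difference of -0.24 (exact permutation p = 0.6, n = 3 each). Without sham replicate 3 this difference was 0.075.

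Summed over both strands, miR-132 had 6175 ± 538 CPM in sham and 5996 ± 610 CPM in the injured group (SD; 3 animals each). miR-212 had 1155 ± 336 and 1290 ± 283 CPM. All 4 strands summed to 7330 ± 577 CPM in sham and 7286 ± 874 CPM in the injured group, a gap well inside the spread of either group. In sham replicate 3 the miR-212 sum was the lowest of the 6, at 824 CPM, while the sum of all 4 strands lay within the range of the others, at 7417 CPM.

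By the SD over the 6 libraries of the log2 ratio to miR-132-3p, a measure of likeness that depends on neither depth nor scaling, miR-212-3p ranked 33 of 350 miRNAs, at 0.17. The 5 miRNAs most like miR-132-3p were miR-497-5p at 0.06, miR-3099 at 0.07, miR-431 at 0.08, miR-320-3p at 0.09 and let-7b-5p at 0.09. From miR-212-3p the nearest was miR-3099, at 0.11, and miR-132-3p ranked 14. The other strand of miR-132 ranked 246 from miR-132-3p, at 0.38, and miR-212-5p ranked 333, at 0.73. miR-212-5p itself lay nearest to miR-145-3p, at 0.09, and miR-132-5p to miR-411-5p, also at 0.09. No row of the table had counts within 14.6% of any of the 4 strands in every library, so none of them shares its counts with another name.

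Other miRNAs known to respond to neuronal activity did not move in 1 direction. The list held 19 names, of which 18 were tested, and 9 had positive and 9 negative log2 fold changes with a median of -0.02, from -0.56 to 0.21. Over all tested miRNAs 244 were positive and 290 negative, with a median of -0.03. edgeR called 0 of the 18, against 0% of all tested miRNAs, and 0 had an unadjusted p under 0.05, against 2.25%. The groups did not overlap for 1 of the 18, a share no higher than the 7.87% of all tested miRNAs. The member with the smallest unadjusted p, also the 1 without overlap, was miR-379-3p, of the Mef2-driven miR-379 to miR-410 cluster, with 70.2 ± 8.0 CPM in sham and 55.2 ± 8.2 CPM in the injured group (SD; 3 animals each), a log2 fold change of -0.35 ± 0.18 (SE; adjusted p = 0.878, edgeR). miR-329-3p, of the same cluster, was at -0.48 ± 0.28 on the same scale, and miR-146a-5p, which is also made in glia, was at -0.40 ± 0.25. miR-134-5p, a dendritic miRNA that limits spine size, had 311 ± 24 CPM in sham and 343 ± 49 CPM in the injured group, and its correlation with miR-132-3p over the libraries was -0.03 in log2 CPM. Of 20 tested neuron-enriched miRNAs, 12 were positive and 8 negative, with a median of 0.07 and 0 called. miR-124-3p, the neuronal reference, had 4782 ± 1086 CPM in sham and 4610 ± 771 CPM in the injured group, a log2 fold change of -0.05 with an interval from -0.52 to 0.41.

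The nearest other miRNA genes in the annotation, by start position on the same chromosome, are Mir6326 and Mir22. miR-6326 did not pass the filter. miR-22-3p, which many tissues express, had 6351 ± 477 CPM in sham and 7177 ± 150 CPM in the injured group (SD; 3 animals each). All 3 injured values lay above all 3 sham values, a separation in either direction that 7.87% of tested miRNAs had, and it did not pass the test, with a log2 fold change of 0.18 ± 0.11 (SE; adjusted p = 0.878, edgeR). miR-22-5p had a log2 fold change of -0.05 ± 0.19.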

How the data were processed

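Small RNA libraries of orbitofrontal cortex came from 3 sham and 3 injured rats. Per the labels' protocols, total RNA was made into ligation-based libraries and size-selected on a gel. The submitters' processing notes name Bowtie and build rn6; neither they nor the labels give the counter, miRNA release or filters. For each library the authors deposited raw read counts and TPM values in 1 table. The deposited TPM equalled the count scaled to a column sum of 1000000, within 4.66e-10, so tests used counts. Labels describe biological replicates and name no batch; replicate numbers follow accession order and pair nothing.

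The members, lists and tests were chosen with earlier results of these data known. Counts were tested with the quasi-likelihood test of edgeR 4.0.16 in R 4.3.3 (TMM, filterByExpr with minimum count 10 and minimum total 15), with Benjamini-Hochberg adjustment over 534 miRNAs and calls at 0.05. The standard error was the absolute log2 fold change over the square root of F. Strand ratios, with 0.5 added to each count, were tested with limma 3.58.1 over 153 hairpins with a mean of at least 10 counts in each arm. Correlations and ratios between hairpins used exact permutation tests (numpy 2.4.6). Correlations used log2 CPM with a prior count of 2. DESeq2 1.42.0 was an alternative. Procedures were tested on simulated data drawn with a single dispersion for all miRNAs. There edgeR called 28 of 96 simulated 2-fold changes, 87 of 91 4-fold changes and 4 of 331 unchanged miRNAs, so most 2-fold changes were missed. Beside the 4 strands, miRNAs were named by a rule: the 5 most like miR-132-3p, 3 of the activity list with the smallest p, miR-134-5p, miR-124-3p and the nearest miRNA genes. The miRNAs nearest the other strands, and the cell type markers named, fall outside it. RefSeq sequences are of GRCr8, and no coordinate was converted. Markers were summed as CPM on library totals. Precision is limited by 3 animals per group. Counting error assumes independent reads, which had no molecular identifiers.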

Additional observations from a re-analysis of the deposited data

How the results depend on the processing

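No paired analysis was possible because the replicate numbers were given in accession order and the labels pair no animals. None of the 4 strands was called under any of 17 alternatives (scaling, filter, tool, TPM with pseudocounts of 1 and 0.1, near-duplicate names, libraries left out). Apart from fits with 1 library fewer, log2 fold changes ranged from -0.32 to -0.08 for miR-132-3p, -0.13 to 0.26 for miR-132-5p, -0.51 to -0.27 for miR-212-3p and 0.06 to 0.42 for miR-212-5p. With 1 library left out in turn they were -0.30 to -0.06, -0.041 to 0.29, -0.55 to -0.23 and -0.0017 to 0.65. The negative value of miR-132-5p, -0.13, came without both libraries highest in the miR-200 family, sham replicate 1 and injured replicate 2. That setting also gave 1 called miRNA in place of 0, miR-293-5p, named after its values were seen, with 4.53 as its log2 fold change (edgeR adjusted p = 0.0318). The cause was not tested.

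Strand ratio differences with 1 library fewer ran from -0.56 to -0.12 for miR-132 and -1.18 to -0.23 for miR-212, and without both of those libraries they were -0.10 and -0.54. The log2 ratio of the 3p strands differed by 0.10 to 0.30 and that of the 5p strands by -0.41 to 0.075 with 1 library fewer. The correlation of the 3p strands lay between 0.900 and 0.962 under its 4 alternatives. Its exact permutation p was 0.00417 on library totals and 0.025 with upper-quartile scaling. With 3 animals per group, 95% intervals extended a median of 0.56 log2 units either way over all tested miRNAs, before any adjustment for multiple tests.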
